A study of Rattus norvegicus with 4 samples.

Results

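Gpnmb, Spp1, Lgals1, Lgals3, Fn1, Tgfb1, Pdgfa and Pdgfb encode proteins that macrophages use to act on matrix-producing cells in injured and scarring lung. The 8 genes were found through the RefSeq accessions of the array's probes, which gave 10 of 45598 probes and 8 of 16581 named genes. Pdgfa and Lgals3 had 2 probes each and the other 6 genes had 1. The probes are A_44_P990376 for Gpnmb, A_44_P491796 for Spp1, A_44_P445070 for Lgals1, A_43_P12698 (spotted 10 times) and A_44_P1159779 for Lgals3, A_44_P681660 for Fn1, A_42_P522899 for Tgfb1, A_42_P738559 and A_44_P1082094 for Pdgfa, and A_64_P086538 for Pdgfb. Probes were matched to genes without using a measured value, but the genes themselves were chosen with earlier results of these data known. All arrays came from NR8383, a macrophage line started from cells washed out of the lung of a normal rat, at 20 passages. The cultures, a mixture of attached and floating cells in serum-containing medium, were seeded 48 h earlier and then held for 4 h with iron oxide particles, Fe2O3 (NRCWE018), at 2 µg/mL. Each of the 4 exposed cultures gave RNA for 1 single-colour array, and the study describes them as biological replicates. The 4 arrays lay on 1 slide, so a difference between them can come from the culture, the labelling or the position on the slide, which cannot be told apart, and p-values measure only the spread between these arrays. Cultures without particles belong to the study and were not analysed here, so no value below is an effect of the particles. NR8383 is 1 cell line from 1 source, which limits it as a model of the macrophages of a lung.

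Transforming growth factor β1 is secreted in a latent complex, and once freed it signals through a pair of receptor kinases and SMAD transcription factors to raise matrix production. Platelet-derived growth factors, dimers of A and B chains among others, drive fibroblasts to divide and migrate. Osteopontin (Spp1) and fibronectin (Fn1) are secreted adhesion proteins bound by integrins, and osteopontin also by CD44. Galectins 1 and 3 bind β-galactoside sugars on glycoproteins, and GPNMB is a membrane glycoprotein of lysosomes and the cell surface that is induced in lipid-laden and lysosome-stressed macrophages. Macrophages expressing Spp1, Lgals3, Fn1 and Gpnmb are a known feature of fibrotic lung.

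The 75th percentile of the processed signal, to which levels are set, lay between 756 and 1082 intensity units on the 4 arrays, lowest on replicate 4. Between 37.8% and 41.2% of probes were well above background, the scanner software's mark for a spot clearly brighter than its background, and no spot was saturated. Of 16 macrophage markers, 12 passed this mark on every array, including Cd68 at 4.96 ± 0.20 and the CSF1 receptor gene Csf1r at -0.40 ± 0.11 (log2 level, SD, n = 4), whereas Marco, Adgre1, Cd163 and C1qa were above background on none. Of markers of cells that could carry the same 8 genes, 2 of 11 fibroblast genes (Dcn and Fap), 1 of 9 epithelial, 3 of 6 endothelial (Pecam1, Cdh5 and Vwf) and 1 of 4 platelet-lineage genes (Gp9) were above background on all 4 arrays, beside 50.5% of all named genes. Among the other fibroblast genes, Col1a1, Col1a2, Col3a1, Pdgfra and Pdgfrb were above background on none, and Acta2 on 3. By the software's laxer mark for a positive and significant signal, Col1a2 passed on all 4 arrays. With 4 arrays, precision is limited for every level below.

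Gpnmb, Lgals1, Lgals3 and Tgfb1 were well above background on all 4 arrays, and Spp1, Fn1, Pdgfa and Pdgfb were on none. The share of 4 in 8 is near the 50.5% of all named genes above background on all 4 arrays, and the other 4 stand beside 43.0% above background on none, so neither share is a result about these genes. Of their 10 probes 5 were above background on all 4 arrays. The share over all probes was 36.5%, but these include 24489 without a gene name. They are an unlike set, so this too is no result about these genes. By the laxer mark for a positive and significant signal the same 4 genes passed on all 4 arrays, against 59.0% of named genes, and 1 gene, Fn1, passed on none, against 21.0%. By the stricter mark no probe of the 8 genes was above background on some arrays only, which applied to 6.45% of named genes. With whole cultures, fewer cells making a transcript and less transcript per cell cannot be told apart.

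**Figure D1:**
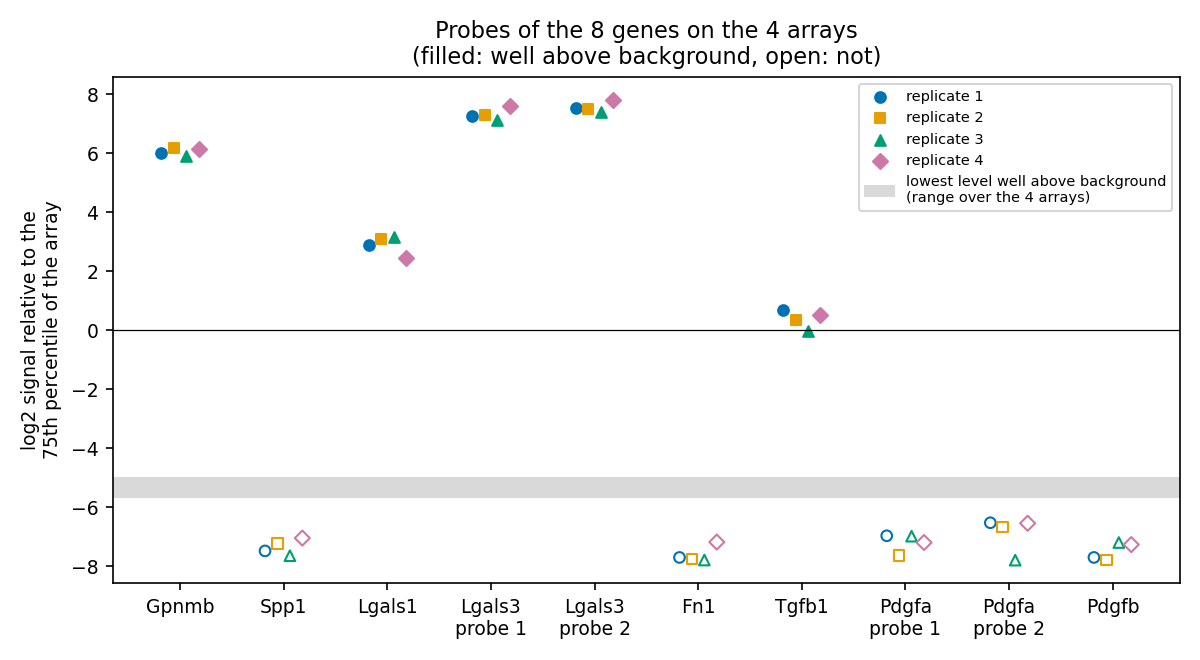
Log2 level, set to the 75th percentile of its array (vertical axis), for the 10 probes of the 8 genes, with 1 symbol per replicate, filled where the probe was well above background and open where it was not. The grey band spans the lowest level marked well above background on each of the 4 arrays, between -5.65 and -5.00; all filled symbols lie above it and all open symbols below it, and heights cannot be compared between probes.

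Gpnmb was above background on every spot of every array. Its log2 level relative to the 75th percentile was 6.02, 6.19, 5.92 and 6.16 on replicates 1 to 4, a mean of 6.07 ± 0.13 (SD, n = 4). The highest and lowest arrays, replicates 2 and 3, differed by 0.28, which is a 1.21-fold difference. This order and size depended on the scaling: with scaling to the median the range was 0.07 and the SD 0.03, with replicate 1 highest and replicate 4 lowest, and with quantile normalization the range was 0.12 and the SD 0.05. The SD of 0.13 was below the 0.15 that limma's prior gave for probes of that mean level. An F test set the variance over arrays against that prior, and is called limma's test here. This F test gave an adjusted p of 0.998 and an unadjusted p of 0.573. The probe was spotted 10 times per array, and all 40 spots were marked well above background, 3 of them also as outliers. Within an array the SD among repeat spots had a median of 0.06.

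Gpnmb transcription is known to be raised by MITF and its relatives TFEB, TFE3 and TFEC, factors that switch on lysosomal genes and bind E-box sequences. All 4 of these factor genes were above background on all 4 arrays: Mitf at 1.28 ± 0.32, Tfeb at -1.26 ± 0.25, Tfe3 at 2.30 ± 0.07 and Tfec at -0.69 ± 0.43 (log2 level, SD, n = 4). RefSeq's promoter table for the GRCr8 build held 5 of the 8 genes. The 250 bases before the annotated start are shown for Gpnmb, a gene above background on all arrays, and for Spp1, one above background on none. Capitals mark matches on either strand to the extended E-box TCATGTGA and to the AP-1 motif TGANTCA, which do not overlap here. The lysosomal CLEAR motif was searched too. Gpnmb lies at chr4:79340878-79341127 on the plus strand and Spp1 at chr14:5619805-5620054 on the minus strand, both printed 5′ to 3′ along the gene.
Gpnmb: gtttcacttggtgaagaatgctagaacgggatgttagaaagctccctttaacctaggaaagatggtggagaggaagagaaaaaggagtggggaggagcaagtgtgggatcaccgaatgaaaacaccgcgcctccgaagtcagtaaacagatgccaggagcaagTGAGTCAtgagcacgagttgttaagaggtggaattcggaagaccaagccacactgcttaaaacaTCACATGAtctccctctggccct
Spp1: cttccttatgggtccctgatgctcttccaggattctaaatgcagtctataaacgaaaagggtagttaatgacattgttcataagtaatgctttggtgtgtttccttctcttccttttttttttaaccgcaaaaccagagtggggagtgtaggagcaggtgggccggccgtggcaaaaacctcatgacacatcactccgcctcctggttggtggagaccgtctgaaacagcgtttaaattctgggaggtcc
The Gpnmb stretch held the E-box, read as TCACATGA from base -23 to -16 before the start, and the AP-1 motif, read as TGAGTCA from base -87 to -81. The Spp1 stretch held none of the 3 motifs, and neither did those of Tgfb1, which was above background on all arrays, or of Pdgfa and Pdgfb, which were not. This says only that these letters are not in those windows. Of 33469 promoters of the same length, 0.977% held the extended E-box, 0.203% the CLEAR motif and 6.34% the AP-1 motif. The motifs were chosen after the sequences had been read, and a match is not a measured binding site.

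Lgals3, galectin-3, which gathers on damaged lysosomes and is abundant in macrophages, was above background by both of its probes. The probe spotted 10 times was at 7.27, 7.31, 7.14 and 7.60 on replicates 1 to 4 (mean 7.33 ± 0.20, SD, n = 4). The probe with a single spot was at 7.54, 7.50, 7.40 and 7.82 (mean 7.56 ± 0.18). In both, replicate 4 was highest and replicate 3 lowest, by 0.47 and 0.42 on the log2 scale. Neither spread passed limma's test (adjusted p 0.998 for both, unadjusted 0.226 and 0.291). Without replicate 4, the most deviating array, the SDs were 0.09 and 0.08. Without any other array they were 0.18 to 0.24 and 0.17 to 0.22. Replicate 4 was highest under 7 of 7 processing settings for the first probe and 6 of 7 for the second, and replicate 3 lowest under 5 of 7 for both, and quantile normalization reduced the ranges to 0.16 and 0.12. Over all probes above background, replicate 4 was highest in 38.1% and replicate 3 lowest in 32.3%. Before scaling, replicate 4 had the lowest signal of both probes, at 146946 and 170393 intensity units against 152140 or more and 177805 or more on the others.

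Lgals1, the dimeric galectin-1, differed from the other detected genes in its lowest array. Its level was 2.91, 3.08, 3.17 and 2.46 on replicates 1 to 4 (mean 2.90 ± 0.32, SD, n = 4). Replicate 4 was 0.59 below the mean of the other 3 and replicate 3 was highest, a range of 0.71 or 1.64-fold. Repeat spots resolved this difference between arrays. The spots not marked as outliers lay between 2.34 and 2.56 on replicate 4, and between 2.86 and 3.34 on the other 3 arrays, without overlap. Such separation was not particular to Lgals1. Unmarked spots of the Lgals3 probe spotted 10 times lay between 7.44 and 7.74 on replicate 4, and at 7.41 or less elsewhere. Those of Fn1, a gene above background on no array, lay between -7.29 and -7.07 on replicate 4, and at -7.56 or less elsewhere. Before scaling the signal was 8029, 8344, 9730 and 4161 intensity units. Repeat spots share 1 hybridisation, so they show that the arrays differed and not whether the cultures did.

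**Figure D2:**
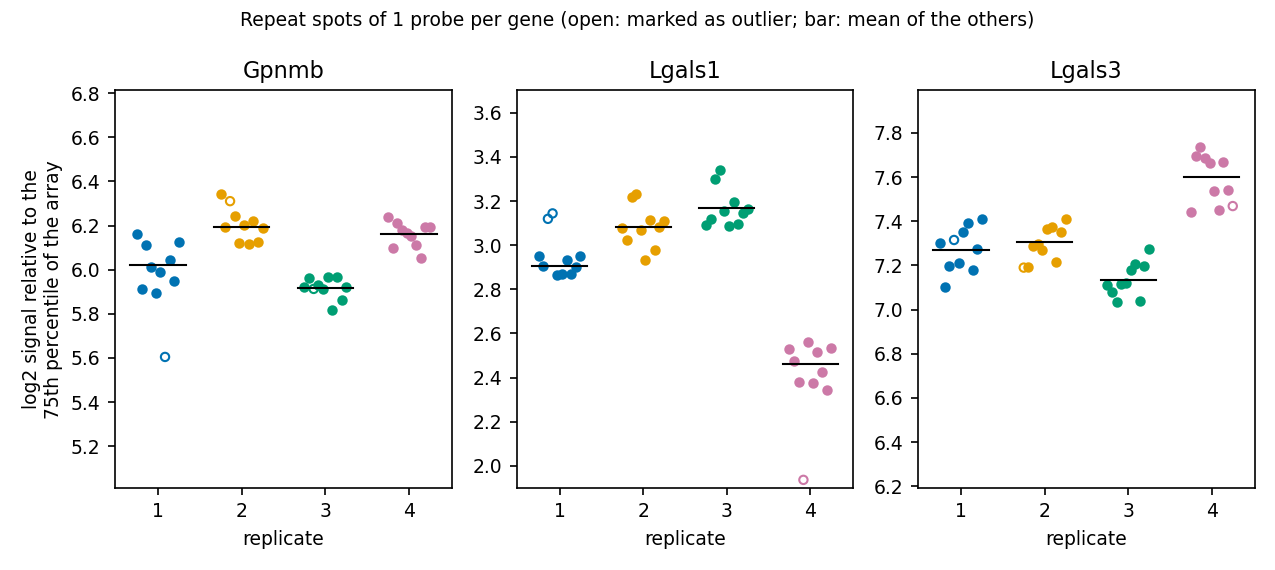
Log2 level (vertical axes, each spanning the same number of log2 units) of the 10 repeat spots of 1 probe each for Gpnmb, Lgals1 and Lgals3 on replicates 1 to 4. Open points are spots marked as outliers and bars are means of the others. Unmarked Lgals1 spots on replicate 4 (2.34 to 2.56) lie below those on the other arrays. Unmarked Lgals3 spots on replicate 4 (7.44 to 7.74) lie above those on the other arrays.

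The SD of Lgals1 between arrays, 0.32, was 3.74 times the median SD of its repeat spots, against 1.97 for Gpnmb, 2.15 for Lgals3 and a median of 2.06 (quartiles 1.34 and 2.98) over the 1036 probes spotted 10 times and above background on all arrays. The prior SD for its level was 0.16. In limma's test of variance over arrays the adjusted p for Lgals1 was 0.816 and the unadjusted p 0.0448, so its spread did not pass over all 16659 probes tested. Without replicate 4 the SD fell to 0.13 and the unadjusted limma p was 0.504. Leaving out the most deviating array lowers the SD by construction. Without replicates 1, 2 and 3 the SDs were 0.39, 0.36 and 0.32 (unadjusted limma p 0.0155, 0.0550 and 0.0540). The adjusted p ranged from 0.384 to 0.998 over the alternatives. The direction held under the 7 processing settings tried: replicate 4 was lowest and replicate 3 highest in 7 of 7, with replicate 4 between 0.59 and 0.75 below the others. Across all probes above background, replicate 4 was lowest in 14.4% and replicate 3 highest in 20.0%.

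Differences between genes on the same array do not depend on a scaling factor that is constant over the array. The log2 difference Lgals1 minus Lgals3 (single-spot probe) deviated from its own mean by 0.02, 0.25, 0.43 and -0.70 on replicates 1 to 4. Gpnmb minus Lgals1 deviated by -0.05, -0.06, -0.42 and 0.53. The pair Gpnmb and Lgals3 kept closer together, at -0.03, 0.19, 0.01 and -0.17. On replicate 4, therefore, the Lgals1 signal was low relative to those of both Lgals3 and Gpnmb, and on replicate 3 it was high relative to both. These unequal changes were not tested as pairs. Replicate 4 also had the lowest 75th percentile and the most spots marked as outliers, 1.62%. The part of these features of the array in the result was not tested. The values without replicate 4 given for Lgals1 and Lgals3 are no test of it, because leaving out the most deviating array lowers the SD.

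Tgfb1, the ligand gene, was above background on all 4 arrays with 1 probe of 1 spot. Its level was 0.69, 0.36, -0.03 and 0.54 on replicates 1 to 4 (mean 0.39 ± 0.31, SD, n = 4). Replicate 3 was lowest and replicate 1 highest, a range of 0.71, and both held these places under 7 of 7 processing settings. The spread did not pass limma's test (adjusted p 0.959, unadjusted 0.0956), and the prior SD was 0.18. Without replicate 3, the most deviating array, the SD was 0.16. Without replicates 1, 2 and 4 it was 0.29, 0.38 and 0.36. With a single spot, differences between arrays cannot be told apart from spot noise for this gene.

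**Figure D3:**
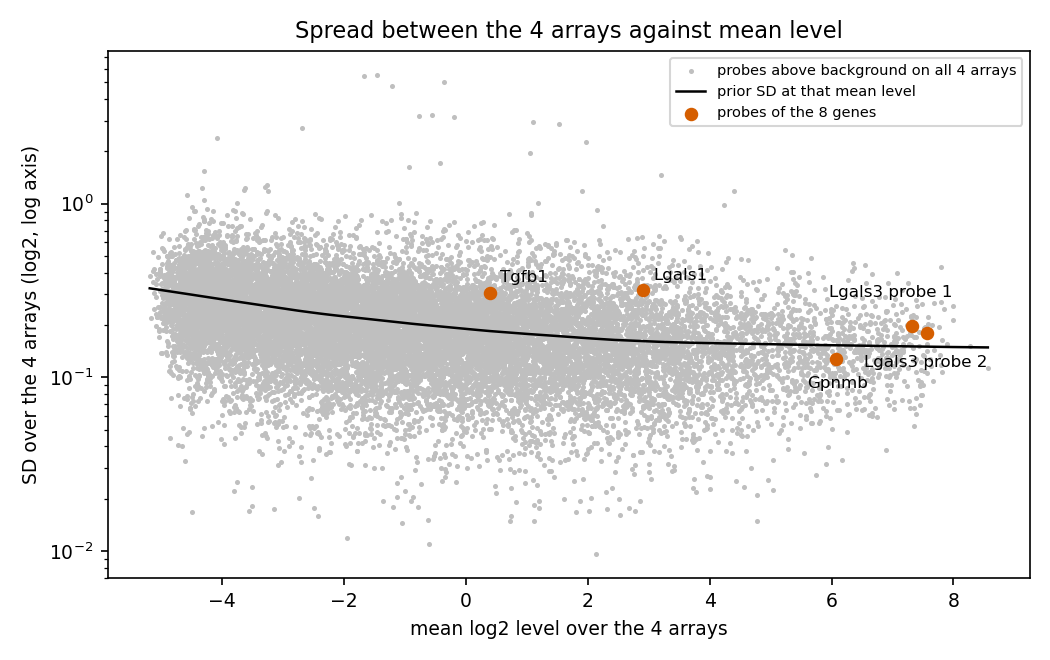
SD over the 4 arrays (log axis) against mean log2 level for the 16659 probes above background on all arrays (grey), with limma's prior SD as a line and the 5 probes of Gpnmb, Lgals1, Lgals3 and Tgfb1 in orange. Lgals1 (0.32) and Tgfb1 (0.31) lie above the line and within the grey cloud, and Gpnmb (0.13) just under the line.

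Of the 5 detected probes, 0 passed limma's test of excess spread at an adjusted p of 0.05 and 1, Lgals1, had an unadjusted p under it. Over all probes 28 of 16659 passed (0.168%), and 984 (5.91%) had an unadjusted p under 0.05. A spread that does not pass does not show that the cultures were alike.

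**Figure D4:**
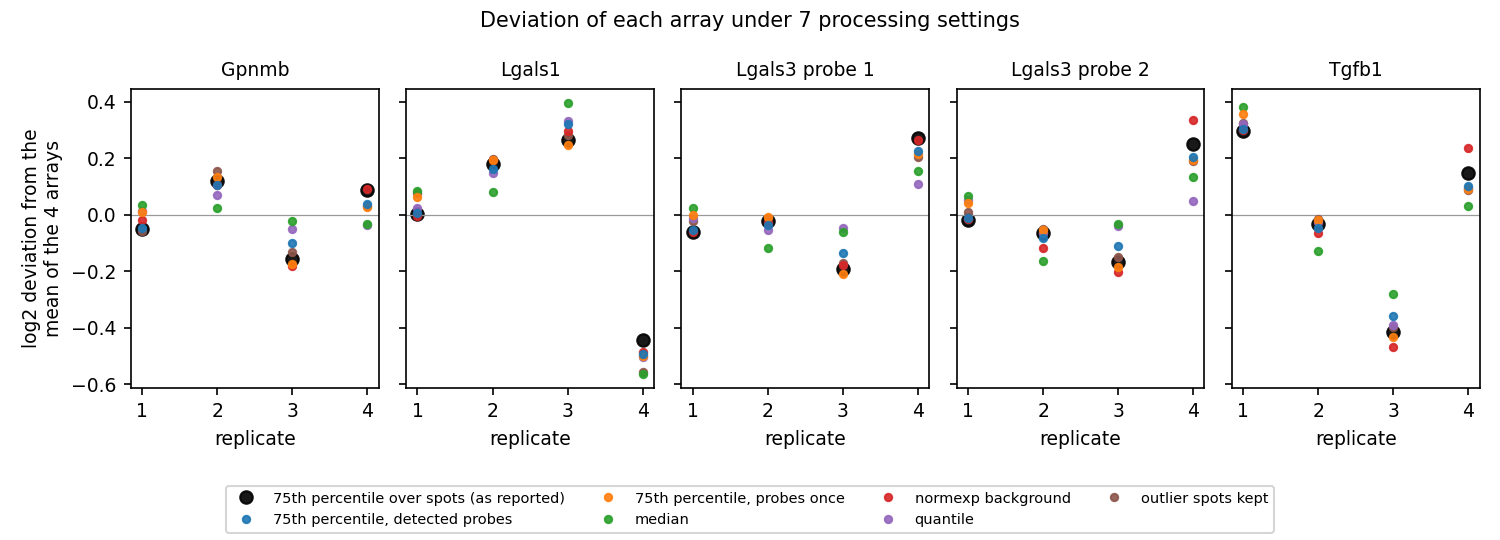
Log2 deviation of each array from the mean of the 4 (vertical axis) for the 5 detected probes under the reported processing (black) and 6 other settings (colours), by replicate. Lgals1 is lowest on replicate 4 and Tgfb1 lowest on replicate 3 under every setting shown, whereas the order of arrays for Gpnmb changes.

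Spp1, osteopontin, a marker of profibrotic macrophages, was not well above background on any array. Its probe was spotted 10 times, and signals are geometric means over the spots not marked as outliers. They were 6.01, 6.59, 5.42 and 5.74 intensity units on replicates 1 to 4, where the lowest signal marked well above background was 22.8, 20.7, 21.5 and 23.7. The Spp1 signal was therefore below that limit by 3.13 to 4.13 times. Of its 40 spots 1 was marked well above background, at 41.0 on replicate 4, and that spot was also marked as an outlier. By the laxer mark for a positive and significant signal, 2, 8, 2 and 4 of 10 spots passed on replicates 1 to 4, so only replicate 2 had most of its spots past it. A signal below this limit gives an upper bound and does not show that the gene was silent. Some other undetected genes lay near the log2 level of Spp1, and some lay higher. On replicates 1 to 4, Spp1 was at -7.48, -7.22, -7.64 and -7.04. Areg, positive and significant on no array, was somewhat lower, at -7.61, -7.67, -7.70 and -7.25. Pmepa1, positive and significant on all 4, was higher, at -6.14, -5.60, -7.32 and -5.84. The distances to the limit given for Spp1, Fn1, Pdgfa and Pdgfb therefore need not measure amounts of transcript.

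Fn1, fibronectin, was below the limit on every array too, in a probe spotted 10 times. Its signal, a geometric mean as for Spp1, was 5.16, 4.56, 4.90 and 5.22 intensity units on replicates 1 to 4. Of its 40 spots 0 were well above background and 1 was positive and significant. The limit lay 4.39 to 4.54 times higher on the 4 arrays.

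The platelet-derived growth factor chains were below the limit on every array. The Pdgfa probes gave 8.58, 4.98, 8.58 and 5.17 intensity units, and 11.7, 9.66, 4.89 and 8.13 in the other, on replicates 1 to 4. The second probe was positive and significant on 3 arrays and the first on 2. Pdgfb was at 5.16, 4.48, 7.39 and 4.92, positive and significant on 1 array. The limit exceeded the Pdgfa signals by 1.96 to 4.59 times and the Pdgfb signals by 2.91 to 4.82 times. These probes have 1 spot per array, and values at this level have no order between arrays.

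Other genes of the same pathways, taken from 8 lists, were above background on all 4 arrays in 64 of 103 cases, on some in 6 and on none in 33. The lists were chosen with earlier results of these data known, and the counts of single lists were not tested. The share of 62.1% stands beside 50.5% of all named genes, and 0 of the 64 passed limma's test of excess spread (3 had an unadjusted p under 0.05), which stands beside 0.168% and 5.91% of all probes tested and is no result about these genes.

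In the list of TGF-β ligands, storage and activation, 3 of 12 genes were above background on all 4 arrays, beside 50.5% of all named genes. The 3 were Nrros, which anchors latent TGF-β1 on macrophages, the protease gene Furin, which cleaves the precursor, and Igf2r, which binds latent TGF-β. The sister ligands Tgfb2 and Tgfb3 and the storage proteins Ltbp1, Ltbp3 and Ltbp4 were above background on none, as were the activator Thbs1 and Itgb6. Tgfb2, Tgfb3 and Ltbp1 lay between -7.89 and -6.38 on the log2 scale. Ltbp2 was above background on 2 arrays, with levels of -4.90, -5.65, -5.55 and -6.60, and Lrrc32 on 3. With the positive and significant mark, 5 genes of this list passed on all 4 arrays.

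Of the receptors and signal carriers of TGF-β, 10 of 13 genes were above background on all 4 arrays, beside 50.5% of all named genes. The signalling receptors Tgfbr1 (-1.40 ± 0.22) and Tgfbr2 (2.86 ± 0.18) and the co-receptor endoglin, Eng (-2.77 ± 0.27), were above background on all 4 arrays, although 1 of 2 Tgfbr1 probes was not. So were Acvrl1, Smad2, the shared partner Smad4, the inhibitor Smad7, Smurf1, Smurf2 and Tgif1. The co-receptor Tgfbr3, between -7.70 and -7.27, and Smad3, a main carrier of TGF-β signals, were above background on none and Smad6 on 3. Of genes known to respond to TGF-β, Smad7, Id1, Id2 and Bhlhe40 were above background on all 4 arrays. Ccn2, Tgfbi, Pmepa1 and Id3 were above background on none, although Pmepa1 was positive and significant on all 4 arrays. The first 3 of these genes lay between -7.75 and -5.60.

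The PDGF list had 2 of 8 genes above background on all 4 arrays, Furin and the co-receptor Nrp1, beside 50.5% of all named genes. The other ligands Pdgfc and Pdgfd and both receptors, Pdgfra and Pdgfrb, were above background on none, with levels between -7.90 and -5.32. Plat was above background on none either, and Plau on 2.

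Galectins and their partners reached the mark on every array in 10 of 16 cases, beside 50.5% of all named genes. The galectins were Lgals8, by all of its 3 probes, Lgals12, by 1 of 2 probes, and the galectin-like Lgalsl. Lgals5 was above background on 3 arrays, with levels of -4.35, -4.61, -4.89 and -4.80, and Lgals2 on 1, with levels of -5.76, -5.72, -4.55 and -6.30. Lgals4 and Lgals7 lay between -7.69 and -6.72. Lgals4, Lgals7 and Lgals9 were above background on none. The glycoprotein partners Lgals3bp, Ptprc, Lamp1, Lamp2 and Slc3a2, the branching enzyme Mgat5 (1 of 2 probes) and Pdcd6ip were above background on all 4, whereas Trim16, which works with galectin-3 on damaged lysosomes, was above background on none.

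In the list of receptors for osteopontin and fibronectin, 7 of 9 genes were above background on all 4 arrays, beside 50.5% of all named genes. Both ligand genes, with 1 probe each, were above background on none, as were 43.0% of all named genes. Cd44 was at 3.32 ± 0.18, the integrin β1 gene Itgb1 at 1.82 ± 0.20 and the β3 gene Itgb3 at -2.40 ± 0.39 (log2 level, SD, n = 4), each above background by 2 of 2 probes. The α chains Itga4 and Itga5, the syndecan Sdc4 and the crosslinking enzyme Tgm2 were detected as well, while Itgb5 (-7.91 to -7.02) and Itga8 were not. Itgav, Itga3 and Itga9 had no named probe.

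**Figure D5:**
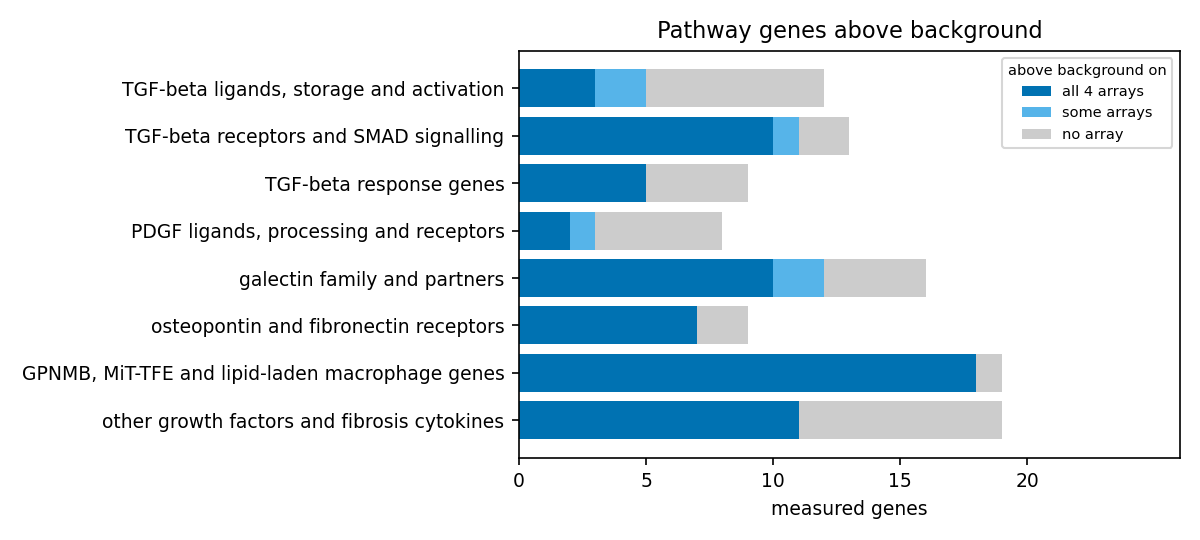
Number of measured genes (horizontal axis) in 8 pathway lists that were above background on all 4 arrays (dark blue), on some (light blue) or on none (grey); a gene can be in several lists. The counts on all arrays run from 2 of 8 for PDGF and 3 of 12 for TGF-β ligands through 11 of 19 for other growth factors to 18 of 19 around GPNMB, beside 50.5% of all named genes, and differences between lists were not tested.

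Genes that accompany Gpnmb in lipid-laden macrophages were above background on all 4 arrays in 18 of 19 cases, beside 50.5% of all named genes. The list was chosen with earlier results of these data known, so its share does not show a lipid-laden state. Beside the MITF family the 18 genes included the receptor Trem2 with its adaptor Tyrobp and the tetraspanins Cd9 and Cd63. The lipid genes Apoe, Lpl, Lipa, Fabp5, Plin2 and Abca1, the lysosomal genes Ctsb, Ctsd and Pld3, and Atp6v0d2 were among them too. Ctsk was above background on none. Among other growth factors and cytokines tied to fibrosis, 11 of 19 genes were above background on all 4 arrays, beside the same 50.5%. Igf1, a macrophage-derived growth factor for fibroblasts, was at 4.36 ± 0.11 and above background by 5 of 5 probes, and Tgfa (1 of 3 probes), Il1b, Tnf, Ccl2, Osm, Grn, Il4r, Il13ra1, Arg1 and Mrc1 were detected too. The EGF-family ligands Hbegf, Areg and Ereg lay between -7.70 and -6.84, above background on none, as were Fgf2, Vegfa, Csf1, Il6 and Retnla.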

How the data were processed

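Each of the 4 cultures gave Cy3-labelled cRNA for 1 Agilent rat array, per the labels' protocols. The authors deposited each array's processed intensity per spot, written by Agilent Feature Extraction (version 11.0.1.1 in the submitters' processing notes), and no normalization between arrays was recorded in the file headers. Deposited flags mark spots above background, saturated or outlying. Replicates came from the titles; no pair of arrays held identical values.

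Of 62976 spots, 58717 were not controls. Outlier-marked spots were left out unless all spots of a probe were marked. Log2 processed intensity was set to each array's 75th percentile over unmarked spots and repeat spots were averaged; a probe counted as above background where most used spots were marked. Accessions were matched to GRCr8 RefSeq symbols (21109 probes named, 24489 not). A gene took the probe above background on most arrays, ties by highest mean. The variance of each probe over arrays was divided by a prior variance from limma (3.58.1, with R 4.3.3 and data.table version 1.17.8). That prior was a robust trend over probes above background on all arrays. The upper-tail F test of this ratio was computed outside limma, with the largest fitted prior degrees of freedom for all probes. Its p-values had Benjamini-Hochberg adjustment. The test was also run on data simulated from that fitted prior, which cannot show how well the prior describes these arrays. Other marks, backgrounds, scalings, priors, probe choices and omissions of each replicate were tried. Promoters came from RefSeq, and probe sequences were not used here. All 8 genes are named with all probes; of each list, the first 4 measured with values and others by detection, except 1 gene that is not reported here. The members and lists were chosen with earlier results of these data known.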

Additional observations from a re-analysis of the deposited data

How the results depend on the processing

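The number of the 8 genes above background on all arrays was 4, and that of their probes 5, under the other background mark, under rules of at least 1 or 3 arrays, with outlier-marked spots kept and without any 1 replicate, and the genes also with every probe required. The number of pathway genes, 64, lay between 60 and 71 under the same alternatives. Excess spread was found in 0 probes of the 8 genes under every alternative run (0 to 2 had an unadjusted limma p under 0.05), while the count over all probes moved from 28 to 304 with normexp background correction, 61 with scaling to the median, 12 with a constant prior variance, 16 with 1 probe per named gene and 872 with all non-control probes. It was 48 with the 75th percentile over probes each counted 1 time, an alternative chosen after seeing the data. Leaving out 1 replicate gave 11 to 56 (56, 11, 18 and 53 without replicates 1, 2, 3 and 4). The cause was not tested. The number of probes entering differed too, from 16659 to 8376 with 1 probe per named gene and 45598 with all non-control probes. It was 16825, 16712, 16714 and 17438 without replicates 1, 2, 3 and 4. Log2 levels shift with the reference chosen (Gpnmb 4.83 with the percentile over detected probes), so a level has meaning only beside its own scaling. No paired analysis was possible because the 4 arrays form 1 group. Signals under the lowest marked well above background limit what can be said of Spp1, Fn1, Pdgfa and Pdgfb, and 24489 unnamed probes may hold further probes of the 8 genes.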

Other observations

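Of the 64 pathway genes above background on all arrays, 3 had an unadjusted p under 0.05 in limma's test of variance over arrays, a share below the 5.91% of all probes tested. They are given as values only and were named after these were seen. Arg1, which turns arginine into ornithine, was at -0.04, 0.22, 0.31 and 1.21 on replicates 1 to 4 (unadjusted p 0.00357 and adjusted p 0.299 in that limma test). Mrc1, the mannose receptor, was at -0.86, -1.85, -1.19 and -0.77 (limma unadjusted p 0.0160, adjusted 0.571). Tfec, the macrophage-restricted member of the MITF family, was at -1.29, -0.73, -0.36 and -0.39 (limma unadjusted p 0.0266, adjusted 0.698). None of these passed after adjustment over all probes.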
